A study of Homo sapiens with 14 samples.

Results

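The Rag GTPases and their partners that hold mTORC1 at the lysosome were followed over time in HepG2 cells given either miR-124 or its negative control by transfection. The members were chosen by gene symbol in the array's platform annotation, from a list of 9 genes: RRAGA, RRAGB, RRAGC, RRAGD, LAMTOR1, LAMTOR3, RPTOR, MTOR and FLCN. The list had been drawn up around RRAGC, which was selected on these same values, since its level climbed with miR-124 while it declined in the control. In all, 16 of the 54675 probe sets on the array carried the symbol of a member and no other, and they stood for 8 of the 9 genes. LAMTOR1 was not analysed here. One further probe set, 227037_at, is annotated to both PLD6 and FLCN and was kept apart.

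The 14 arrays held 7 of miR-124 and 7 of the negative control, with 1 array of each at 4, 8, 16, 24, 32, 72 and 120 h. HepG2 is an established human liver tumour line, and miR-124 is a microRNA abundant in neurons, supplied here by transfection. Neither the dose nor an untransfected culture is described in the labels, and the arrays measure messenger RNA, so the level of miR-124 itself was not checked. Values are log2 probe set levels from RMA, in which 1 unit is a doubling, and a paired ratio is the miR-124 level minus the control level at the same hour.

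Rag GTPases work as pairs, in which RagA or RagB (RRAGA, RRAGB) joins RagC or RagD (RRAGC, RRAGD). The Ragulator complex, which includes LAMTOR1 and LAMTOR3, anchors the pair on the lysosome. When amino acids are plentiful, the pair binds raptor (RPTOR), the subunit that brings the kinase mTOR (MTOR) to the lysosome as mTORC1. Folliculin (FLCN), with its FNIP partners, switches RagC and RagD to the active state, and this arm controls the phosphorylation of TFEB and TFE3, transcription factors of lysosomal genes. These factors in turn are known to bind CACGTG-type sites and to act on RRAGC and RRAGD, RRAGD most of all.

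Promoter windows are shown for RRAGC, RRAGB and LAMTOR3 because they hold a site of that kind. Each runs from 250 bases before to 50 bases after a gene start, 5′ to 3′ on the gene's strand, from RefSeq (GRCh38.p14), and capitals mark CACGTG or TCATGTGA, searched on both strands. A window was listed for 7 of the 9 members. RRAGA and RRAGD are named only.
RRAGC, chr1:38859723-38860022, minus strand: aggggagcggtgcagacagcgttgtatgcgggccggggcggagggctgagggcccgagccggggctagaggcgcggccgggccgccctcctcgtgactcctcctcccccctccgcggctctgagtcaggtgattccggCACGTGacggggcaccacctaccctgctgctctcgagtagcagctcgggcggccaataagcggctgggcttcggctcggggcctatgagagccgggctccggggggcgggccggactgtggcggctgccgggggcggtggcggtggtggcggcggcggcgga
RRAGB, chrX:55717499-55717798, plus strand: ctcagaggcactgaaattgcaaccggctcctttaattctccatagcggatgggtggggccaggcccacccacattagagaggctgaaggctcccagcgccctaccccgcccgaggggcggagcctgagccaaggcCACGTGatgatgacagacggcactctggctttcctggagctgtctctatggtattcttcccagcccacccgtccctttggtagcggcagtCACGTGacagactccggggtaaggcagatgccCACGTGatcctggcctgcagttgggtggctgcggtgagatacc
LAMTOR3, chr4:99894378-99894677, minus strand: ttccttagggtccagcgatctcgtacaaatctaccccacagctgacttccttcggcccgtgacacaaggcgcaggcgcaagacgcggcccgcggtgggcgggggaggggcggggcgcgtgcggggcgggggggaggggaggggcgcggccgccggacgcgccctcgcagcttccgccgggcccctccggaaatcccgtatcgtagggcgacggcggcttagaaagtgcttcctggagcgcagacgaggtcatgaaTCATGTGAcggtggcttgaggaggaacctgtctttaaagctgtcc
The RRAGC window held 1 CACGTG, which began 112 bases before the start. The RRAGB window held 3, of which 2 began 115 and 25 bases before the start and the third lay just after it. The LAMTOR3 window held 1 TCATGTGA just after the start, and a second listed LAMTOR3 window held neither motif. The LAMTOR1 window held 1 CACGTG and 2 TCATGTGA, and the windows of RPTOR, MTOR and FLCN held none. Among all 35116 listed windows, 7.26% held CACGTG, 1% held TCATGTGA and 8.16% held either. The motifs were picked after these sequences had been seen, and the 2 motifs do not overlap each other in letters at any site printed. A match describes the letters only.

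Hepatocyte markers were high in both arms. The 9 measured hepatocyte markers, among them albumin and transferrin, averaged between 10.9 and 13.9, and their summed level on a log2 scale was 16.38 to 16.55 with miR-124 and 16.41 to 16.67 in the control, and 1 of the 9, FGB, passed as lower with miR-124 at 72 and 120 h (-0.46 ± 0.09, SE). The 8 markers of blood, fibroblast, endothelial and squamous cells averaged 5.12 to 8.44, against a median of 6.19 for all probe sets. Their summed level was 10.08 to 10.77 with miR-124 and 10.00 to 10.14 in the control, and 2 of the 8, CD3D (1.44 ± 0.24, SE, at 72 and 120 h) and PECAM1 (0.46 ± 0.11, SE), passed the test as higher there. Without the 72 h pair CD3D was 0.83 (adjusted p = 0.0169) and PECAM1 0.28 (adjusted p = 0.215), and FGB did not pass (adjusted p = 0.0864). The 3′ minus 5′ signal of ACTB, a measure of RNA integrity, was higher with miR-124 at all 7 times. The gap was widest at 120 h, with 0.41 against 0.10 in the control, and almost nil at 4 h, with 0.351 against 0.348. The same measure for GAPDH was higher with miR-124 except at 4 h, with 0.195 against 0.204. Signal of 18S ribosomal RNA was 11.05 with miR-124 and 8.70 in the control at 4 h, and 8.28 and 9.20 at 8 h. The part of the markers, RNA integrity or ribosomal signal in the results that follow was not tested. In bulk RNA, a change in the number of cells of one kind and a change in RNA per cell cannot be told apart.

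RRAGC had the widest gap between the arms of any member. RagC is the partner whose nucleotide state governs binding of mTORC1 and of TFEB. Its brightest probe set, 218088_s_at, read 9.20, 9.49, 9.58, 9.97, 10.17, 10.45 and 9.88 with miR-124 at 4, 8, 16, 24, 32, 72 and 120 h. In the control the same probe set read 9.14, 8.78, 8.43, 8.32, 8.59, 8.37 and 8.13. The 2 arms did not overlap: the lowest miR-124 value, 9.20 at 4 h, lay above the highest control value, 9.14 at the same hour. The paired ratio was 0.06 at 4 h, 0.72 at 8 h and 1.15 at 16 h, and 2.08 at its highest, at 72 h. These values chose the gene, so they stand as a description with no test.

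A second RRAGC probe set, 222514_at, gave a wider gap. It read 9.13, 9.20, 9.19, 9.81, 10.01, 10.30 and 9.78 with miR-124, while the control arm read 8.81, 8.09, 7.87, 7.72, 7.81, 7.77 and 7.53. Up to 16 h the miR-124 arm stayed between 9.13 and 9.20, while the control read 8.81 at 4 h and 7.87 at 16 h. Averaged over 72 and 120 h, the miR-124 level was 5.23-fold the control level by this probe set and 3.76-fold by 218088_s_at. Both probe sets had a slope on time of opposite sign in the 2 arms. Per doubling of time, 218088_s_at moved by 0.20 with miR-124 and by -0.17 in the control. For 222514_at the slopes were 0.22 with miR-124 and -0.21 in the control. RRAGC was chosen because it climbed with miR-124 and declined in the control, so these slopes restate the choice and carry no test.

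The third RRAGC probe set, 242531_at, did not show this pattern. It was dim, at 6.18 to 6.47 with miR-124 and 5.96 to 6.28 in the control, and its paired ratio stayed between 0.01 and 0.28. It had the same sign as the other two at all 7 times but differed from 222514_at by up to 2.42 log2 units, so the size of the RRAGC difference depends on the probe set read. Averaging the 3 probe sets lowered the RRAGC difference to 1.15 at 16 to 32 h and 1.49 at 72 and 120 h, against 1.46 and 1.91 by the brightest one alone.

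**Figure D1:**
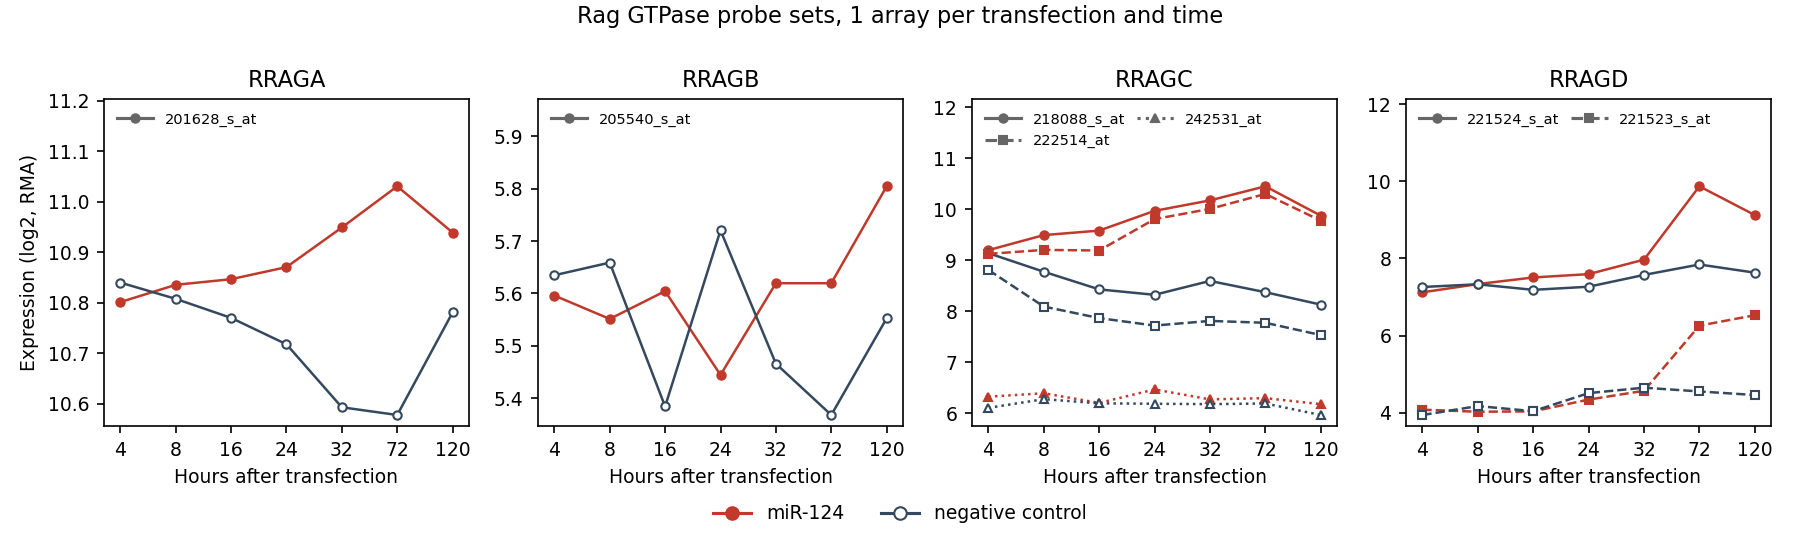
Levels (log2, RMA) of the probe sets of RRAGA, RRAGB, RRAGC and RRAGD against hours after transfection, with miR-124 filled and red and the negative control open and dark; each point is 1 array, line styles mark probe sets, and the vertical axes differ between panels. The RRAGC arms part by 8 h. The RRAGD arms part widely at 72 h, when 221524_s_at reads 9.87 with miR-124 and 7.84 in the control.

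RRAGD, the other partner of RagA and RagB, followed a later course. By both of its probe sets its level stood far above the control at 72 and 120 h only. Up to 32 h it was near the control by 221523_s_at, and by 221524_s_at it was higher by 0.32 to 0.40 from 16 to 32 h. The brighter one, 221524_s_at, read 7.12, 7.33, 7.51, 7.59, 7.97, 9.87 and 9.12 with miR-124, while the control arm read 7.26, 7.33, 7.18, 7.26, 7.57, 7.84 and 7.63. Both late miR-124 arrays lay above every control array, and the 5 earlier ones lay within 0.40 of the control at the same hour. The mean difference at 72 and 120 h was 1.76 ± 0.12 (SE of the fit, n = 2 pairs), or 3.39-fold, with an adjusted p of 7.55e-05 by limma over all 54613 probe sets. The second probe set, 221523_s_at, read 4.08, 4.02, 4.03, 4.34, 4.57, 6.25 and 6.53 with miR-124 and 3.94 to 4.65 in the control. Its mean over the 14 arrays, 4.58, stood at percentile 18.9 of all probe sets, so its control level was not shown to be above background and no fold is given. Its late difference was 1.89 ± 0.11 (SE) with a limma adjusted p of 4.39e-05.

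At 16, 24 and 32 h the 2 RRAGD probe sets differed from each other. By 221524_s_at the miR-124 level was higher by 0.35 ± 0.10 (SE, n = 3 pairs, limma adjusted p = 0.118), and by 221523_s_at it differed by -0.08 ± 0.09 (adjusted p = 0.831). The 221524_s_at difference passed with that window fitted on its own arrays (limma adjusted p = 0.0158). It also passed with either late pair left out. The difference at 72 and 120 h exceeded that at 16 to 32 h by 1.41 ± 0.16 for 221524_s_at (limma adjusted p = 0.00357) and by 1.97 ± 0.14 for 221523_s_at (adjusted p = 0.00064). Within the miR-124 arm, the level of RRAGD rose with time by 0.52 ± 0.10 and 0.56 ± 0.11 per doubling (limma adjusted p = 0.0187 and 0.0171). The control arm gave 0.11 ± 0.03 and 0.13 ± 0.04 per doubling, which did not pass (adjusted p = 0.115 and 0.102). Without the 8 h array, the rise with time in the miR-124 arm no longer passed for either RRAGD probe set. Probe sets whose names end in _s_at, those of all 4 Rag genes included, can match more than 1 transcript, so signal from a paralog cannot be told apart here.

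RRAGA and RRAGB encode the partners that bind raptor directly, and neither passed the test in any window. RRAGA (201628_s_at) read 10.80, 10.84, 10.85, 10.87, 10.95, 11.03 and 10.94 with miR-124, while the control arm read 10.84, 10.81, 10.77, 10.72, 10.59, 10.58 and 10.78. The arms overlapped, and from 8 h on the miR-124 array was the higher of each pair, by at most 0.45. The late difference was 0.31 ± 0.10 (SE, n = 2 pairs; limma adjusted p = 0.0874). It passed when the hour was not used as a block (adjusted p = 0.0357) and, with 120 h left out, at 0.45 (adjusted p = 0.0368). RRAGB (205540_s_at) was dim, at 5.44 to 5.80 with miR-124 and 5.37 to 5.72 in the control, with ratios of both signs from -0.28 to 0.25. Its late difference was 0.25 ± 0.12 (SE; adjusted p = 0.227).

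LAMTOR3, the Ragulator subunit also known as the MAPK scaffold MP1, was the one tested member that passed both in the middle of the time course and at its end. By 217971_at the level was 10.24, 10.26, 10.41, 10.51, 10.52, 10.90 and 10.55 with miR-124, while the control arm read 10.26, 10.21, 10.02, 10.06, 10.03, 10.12 and 9.94. The arms differed by -0.02 at 4 h and 0.05 at 8 h, and from 16 h on every miR-124 array lay above every control array. The difference was 0.44 ± 0.07 at 16 to 32 h (SE, n = 3 pairs), or 1.36-fold, with a limma adjusted p of 0.0117. At 72 and 120 h it was 0.69 ± 0.08 (SE, n = 2 pairs), or 1.61-fold, with a limma adjusted p of 0.000981. The middle call did not hold without the 24 h or the 32 h pair (adjusted p = 0.148 each, with differences of 0.44 and 0.42).

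The dimmer LAMTOR3 probe set, 227562_at, moved later and further. It read 6.81, 6.66, 6.82, 7.19, 7.19, 8.16 and 8.18 with miR-124, while the control arm read 6.92, 6.69, 6.96, 6.93, 6.92, 7.02 and 6.71. The last 2 miR-124 arrays stood 1.14 and 1.47 above their pair, and the other 5 at most 0.27. The difference was 0.13 ± 0.10 at 16 to 32 h (limma adjusted p = 0.705) and 1.30 ± 0.12 at 72 and 120 h (adjusted p = 0.000345), or 2.47-fold. The gain between the windows was 1.17 ± 0.16 (limma adjusted p = 0.00837), while for 217971_at it was 0.24 ± 0.11 (adjusted p = 0.361). The level also rose with time within the miR-124 arm by 227562_at, by 0.34 ± 0.06 per doubling (limma adjusted p = 0.0115). The 2 probe sets of this gene had the same sign at 5 of 7 times and differed by at most 0.87.

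**Figure D2:**
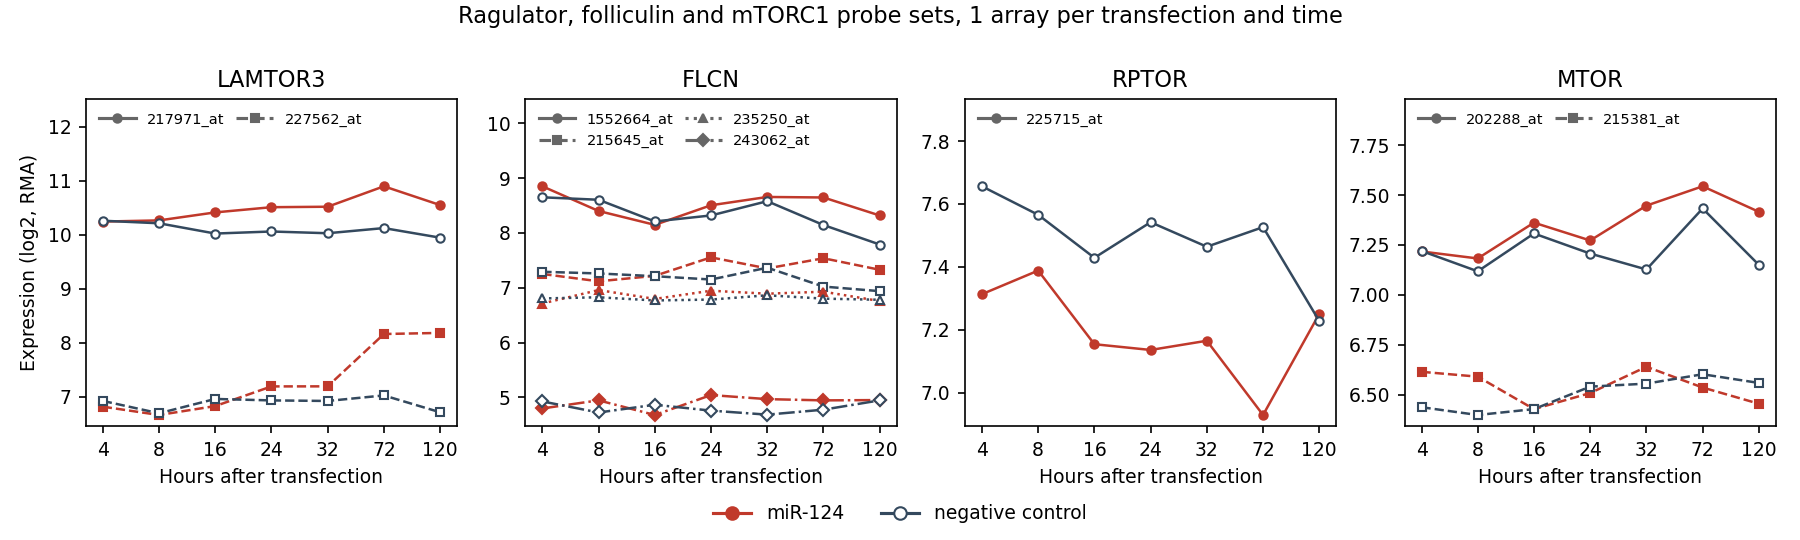
Levels (log2, RMA) of the probe sets of LAMTOR3, FLCN, RPTOR and MTOR against hours after transfection, with miR-124 filled and red and the negative control open and dark; each point is 1 array, line styles mark probe sets, and the vertical axes differ between panels. LAMTOR3 separates from 16 h by 217971_at, and RPTOR lies lower with miR-124 at every hour up to 72 h, with 6.93 there against 7.53 in the control.

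FLCN, the activator of RagC and RagD, was higher at 72 and 120 h by 2 of its 4 probe sets. By 1552664_at it read 8.85, 8.40, 8.15, 8.51, 8.66, 8.65 and 8.32 with miR-124, while the control arm read 8.65, 8.61, 8.21, 8.32, 8.58, 8.14 and 7.79. The arms overlapped, and the 2 lowest control arrays were those at 72 and 120 h. The late difference was 0.52 ± 0.11 (SE, n = 2 pairs), or 1.43-fold, with a limma adjusted p of 0.0139, and by 215645_at it was 0.45 ± 0.11, or 1.37-fold (adjusted p = 0.0273). The level of 1552664_at in the control had a slope of -0.15 ± 0.04 per doubling of time (limma adjusted p = 0.0654), and with miR-124 one of -0.04 ± 0.05 (adjusted p = 0.712).

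The other FLCN probe sets, 235250_at and 243062_at, gave late differences of 0.05 ± 0.09 and 0.09 ± 0.14, which did not pass (limma adjusted p = 0.802 and 0.771). The late call by 1552664_at was lost without the 72 h pair (adjusted p = 0.0595) or the 120 h pair (adjusted p = 0.055), and also when the hour was not used as a block (adjusted p = 0.105). The late call by 215645_at was lost likewise without the 72 h pair (adjusted p = 0.152) or the 120 h pair (adjusted p = 0.0507). The mean over the 4 probe sets gave 0.28 with an adjusted p of 0.0551. The probe set annotated to both PLD6 and FLCN had ratios of -0.45 at 72 h and 0.63 at 120 h.

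RPTOR was the one member whose level tended to be lower with miR-124, and it did not pass. Its probe set, 225715_at, read 7.31, 7.39, 7.15, 7.14, 7.16, 6.93 and 7.25 with miR-124, while the control arm read 7.66, 7.57, 7.43, 7.54, 7.46, 7.53 and 7.23. The miR-124 array was the lower one in 6 of 7 pairs, and the arms overlapped through the 120 h control, which was the lowest of its arm. Over all 7 times the difference was -0.30 ± 0.07 (SE, n = 7 pairs), with a limma adjusted p of 0.0753. At 16 to 32 h it was -0.33 ± 0.11 (adjusted p = 0.199), which passed with either late pair left out (adjusted p = 0.0201 in each case). At 72 and 120 h it was -0.29 ± 0.13 (adjusted p = 0.222), made up of -0.60 at 72 h and 0.02 at 120 h. Without the 120 h pair the late difference was -0.60 (adjusted p = 0.00671), and without the 72 h pair it was 0.02.

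MTOR, the kinase itself, did not pass in any window. By 202288_at it was 7.18 to 7.54 with miR-124 and 7.12 to 7.43 in the control, with paired ratios that reached 0.32 at most. The second probe set, 215381_at, lay at 6.43 to 6.64 with miR-124 and 6.40 to 6.60 in the control. The late difference was 0.19 ± 0.09 by 202288_at (SE, n = 2 pairs; limma adjusted p = 0.261) and -0.09 ± 0.08 by 215381_at (adjusted p = 0.579).

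**Figure D3:**
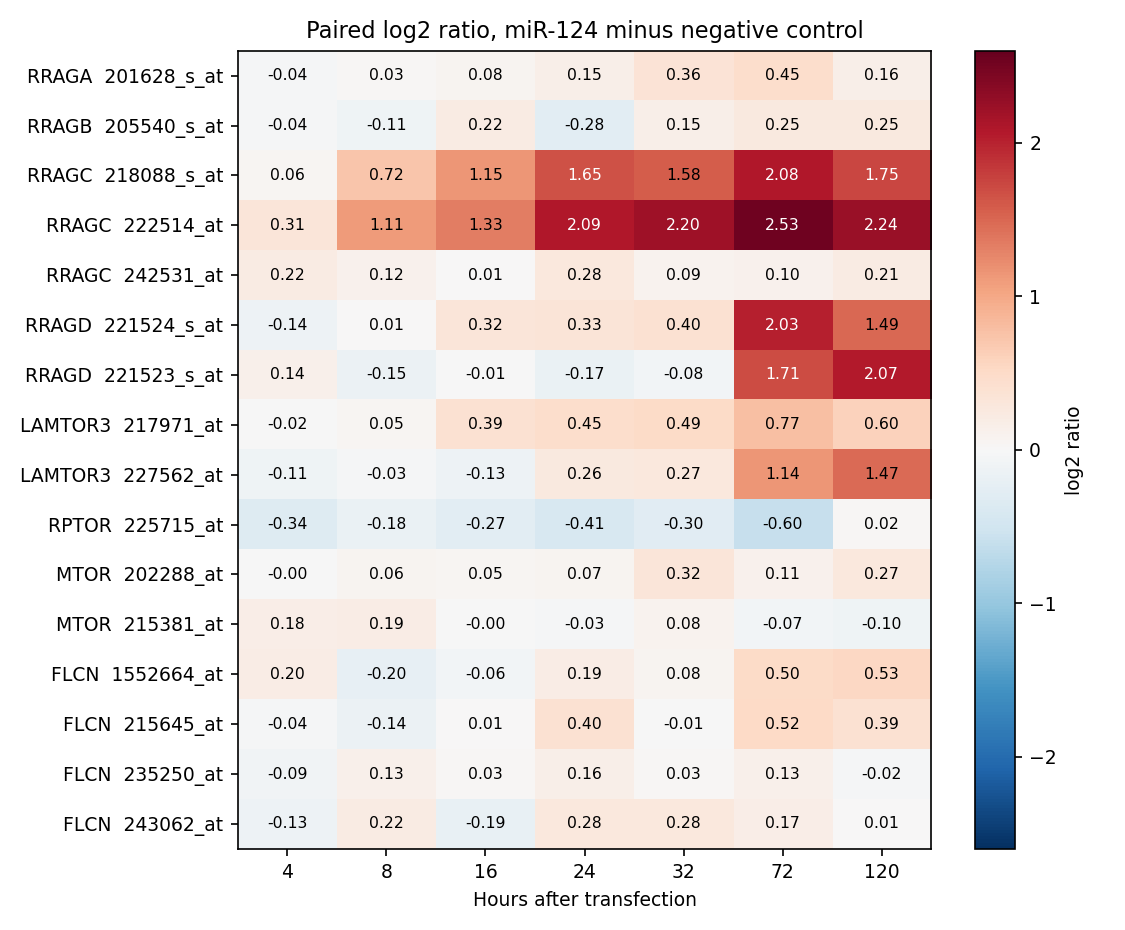
Paired log2 ratio (miR-124 minus negative control) of the 16 member probe sets, 1 row each, at 4 to 120 h, with red for higher and blue for lower with miR-124 and the ratio printed in each cell; each cell is 1 pair of arrays. RRAGC is red from 8 h by 2 of its 3 probe sets, RRAGD and LAMTOR3 (227562_at) are red at 72 and 120 h, and RPTOR is blue up to 72 h.

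Counted over the 13 probe sets of the 7 tested genes, RRAGC left out, the differences gathered late. At 4 and 8 h none passed, with 1 at an unadjusted p under 0.05, and limma called 0% of all 54613 probe sets, with 1869 at an unadjusted p under 0.05. At 16 to 32 h, 1 of 13 was higher and 0 lower (4 at an unadjusted p under 0.05 by limma), where 1.29% of all probe sets were higher and 1.92% lower. In that window 7199 of all 54613 probe sets had an unadjusted p under 0.05 by limma. At 72 and 120 h, 6 of 13 were higher and 0 lower (7 at an unadjusted p under 0.05 by limma), where 8.86% of all were higher and 6.01% lower. Late, 14216 of all 54613 had an unadjusted p under 0.05 by limma. The 6 belonged to 3 genes, RRAGD, LAMTOR3 and FLCN, with 2 probe sets each. The median late difference of the 13 was 0.31, against -0.02 for all probe sets, and the median at 16 to 32 h was 0.13 against 0.02.

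In all, 3 of the 13 gained between the middle and late windows and 0 lost, where 1.74% of all probe sets gained and 0.56% lost. Fitted as one difference over all 7 times, 0 of 13 passed by limma (5 at an unadjusted p under 0.05), where 0.591% of all probe sets did. In that fit 9795 of all 54613 had an unadjusted p under 0.05 by limma. Along the time course, 3 of 13 rose and 0 fell with miR-124, where 6.68% of all rose and 3.03% fell. In the control 0 of 13 passed in either direction by limma (6 at an unadjusted p under 0.05), where 1.12% of all rose and 2.13% fell. There, 10799 of all 54613 had an unadjusted p under 0.05 by limma.

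The wider pathway was read from 9 lists with 66 measured genes, each gene by its brightest probe set. At 16 to 32 h, 3 of 66 were higher and 3 lower, where 1.76% of all 19775 genes were higher and 2.54% lower. At 72 and 120 h, 14 were higher and 8 lower, where 11.2% of all genes were higher and 7.87% lower. The median difference over the 66 was 0.03 at 16 to 32 h and 0.10 at 72 and 120 h, against 0.02 and -0.02 for all genes. All 6 middle calls were lost without the 24 h or the 32 h pair, and 1 of the 6, UVRAG, held without 4 or 8 h. Of the 22 late calls, 9 still passed without the 72 h pair and 18 without the 120 h pair. Leaving out an earlier pair kept 16 to 20 of the 22 late calls. In the single fit over all 7 times 0 of 66 passed by limma (22 at an unadjusted p under 0.05). Counted by probe set rather than by gene, 9795 of all 54613 had such an unadjusted p in that fit.

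Upstream of the Rag GTPases, the GATOR complexes gave few calls. GATOR1, which turns RagA and RagB off, had 0 of 3 genes past the test in either window by limma (0 in the middle and 0 late at an unadjusted p under 0.05), and its largest middle difference was 0.15 ± 0.09 for NPRL3 (SE, n = 3 pairs; adjusted p = 0.562). GATOR2, which restrains GATOR1, had 2 of 5 lower at 16 to 32 h. SEH1L, also a nuclear pore protein, fell by 1.58 ± 0.31 (SE; limma adjusted p = 0.0308). Its late difference was -1.28 ± 0.38 (limma adjusted p = 0.0533), made up of -2.18 at 72 h and -0.39 at 120 h. SEC13, shared with the nuclear pore and with COPII coats, fell by 0.71 ± 0.15 and, late, by 1.18 ± 0.18 (limma adjusted p = 0.0378 and 0.00288). The late SEC13 difference was -0.77 without the 72 h pair, and still passed (adjusted p = 0.0148). KICSTOR, the GATOR1 anchor, had 0 of 3 past the test by limma (1 in the middle and 0 late at an unadjusted p under 0.05), and its largest middle difference was -0.30 ± 0.09 for KICS2 (SE; limma adjusted p = 0.151).

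Among the 7 amino acid sensors, 1 was higher at 16 to 32 h, and 3 were higher and 1 lower at 72 and 120 h. SESN1, a sestrin that is also a p53 target, rose by 0.88 ± 0.17 in the middle and 1.16 ± 0.21 late (SE; limma adjusted p = 0.0332 and 0.00723). SESN2, the leucine sensor, rose late by 0.64 ± 0.13 and SAMTOR, the S-adenosylmethionine sensor, by 0.73 ± 0.19 (limma adjusted p = 0.0131 and 0.0342). CASTOR1, the arginine sensor, was lower than the control late, at -0.44 ± 0.11 (limma adjusted p = 0.0282), with 5.39 and 5.42 under miR-124 and 5.66 and 6.02 in the control at 72 and 120 h. Signal was low for CASTOR1 and SAMTOR, with means of 5.57 and 6.15 against a median of 6.19 for all probe sets. Each of these 4 late calls was lost without 1 of the late pairs. The SAMTOR call was also lost when 4, 8, 16, 24 or 32 h was left out (limma adjusted p = 0.056 to 0.0667). That of CASTOR1 was also lost without 24 h (limma adjusted p = 0.0527). Without the 72 h pair SESN1 was 0.83 (adjusted p = 0.0742), SESN2 0.42 (adjusted p = 0.13) and SAMTOR 0.23 (adjusted p = 0.303), and without the 120 h pair CASTOR1 was -0.28 (adjusted p = 0.23). Of 5 further Ragulator subunits and folliculin partners, 1 passed, late: FNIP1, a partner of folliculin, was higher by 0.35 ± 0.08 (SE; limma adjusted p = 0.0232). The FNIP1 call was lost without the 72 h or the 120 h pair, with differences of 0.34 and 0.36. It was also lost without 24 h (limma adjusted p = 0.0533).

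Of the 6 genes of the TSC and RHEB branch, which sets RHEB activity on the lysosome, 1 was higher at 16 to 32 h, and 2 were higher and 1 lower late. TBC1D7, a subunit of the TSC complex, was higher by 0.39 ± 0.08 in the middle and 0.38 ± 0.10 late (SE; limma adjusted p = 0.0408 and 0.0332), and TSC1 was higher late by 0.56 ± 0.10 (adjusted p = 0.00549). Without the 72 h pair TBC1D7 was 0.21 late and TSC1 0.43, and neither call held. The late TBC1D7 call was also lost when 4, 8, 16, 24 or 32 h was left out (limma adjusted p = 0.052 to 0.0686). DDIT4 (REDD1), a stress-induced inhibitor of mTORC1, was lower than the control late, at -0.85 ± 0.19 (limma adjusted p = 0.0196), made up of -0.36 at 72 h and -1.33 at 120 h, when it read 8.91 under miR-124 and 10.24 in the control. It did not pass without the 120 h pair (adjusted p = 0.143). Of 9 mTOR complex partners, AKT1S1 (PRAS40), an mTORC1 inhibitor and substrate, alone passed. It was lower than the control late, at -1.12 ± 0.29 (SE, limma adjusted p = 0.0329). The difference was -1.77 at 72 h and -0.47 at 120 h. At 4, 8, 16, 24 and 32 h it was -0.88, 0.07, -1.08, -0.66 and -0.87, so a lower level was not confined to the late hours. The AKT1S1 call did not hold without the 72 h pair, nor without 16, 24 or 32 h (limma adjusted p = 0.0507, 0.0605 and 0.0592). Of 12 mTORC1 substrates and effectors, 1 was lower at 16 to 32 h, and 1 was higher and 2 lower late. EIF4EBP1, the translation repressor that mTORC1 inactivates, fell by 0.44 ± 0.09 in the middle and 0.98 ± 0.11 late (limma adjusted p = 0.0386 and 0.000786). Its relative EIF4EBP2 fell late by 0.43 ± 0.09 (limma adjusted p = 0.0102). TFE3 was higher than the control late by 0.36 ± 0.09 (limma adjusted p = 0.0327). With miR-124 TFE3 read 9.72 at 32 h and 9.46 and 9.53 late, and in the control 9.51 and then 9.16 and 9.11. Neither call held without the 72 h pair, with differences of -0.33 for EIF4EBP2 and 0.42 for TFE3. The TFE3 call did not hold without 120 h either, at 0.30. It was also lost without 16, 24 or 32 h (limma adjusted p = 0.053, 0.0664 and 0.0538). TFEB differed late by 0.04 ± 0.10 (limma adjusted p = 0.882).

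Lysosomal and TFEB target genes gave 7 of the 14 late increases. Of 16 measured, 1 was higher at 16 to 32 h, where 1.76% of all genes were higher. At 72 and 120 h, 7 were higher and 2 lower, where 11.2% of all genes were higher and 7.87% lower. HEXA, a subunit of a lysosomal hexosaminidase, rose late by 1.14 ± 0.14 and CTSA, the protective protein cathepsin A, by 0.76 ± 0.11 (SE; limma adjusted p = 0.00107 and 0.00236). UVRAG, which acts in autophagosome maturation, rose by 0.46 ± 0.07 in the middle and 0.99 ± 0.09 late (limma adjusted p = 0.0142 and 0.000295). GLA, the lysosomal alpha-galactosidase, fell late by 0.84 ± 0.16 (limma adjusted p = 0.00803), but was -0.47 without the 72 h pair (adjusted p = 0.0588). The late calls of HEXA, CTSA and UVRAG held with either late pair left out, as did those of MCOLN1 and MAP1LC3B. The late calls of LAMP2, PSAP and GPNMB did not hold without the 72 h pair, with differences of -0.49, 0.43 and 0.37 then. The median late difference of the 16 was 0.18, against -0.02 for all genes.

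**Figure D4:**
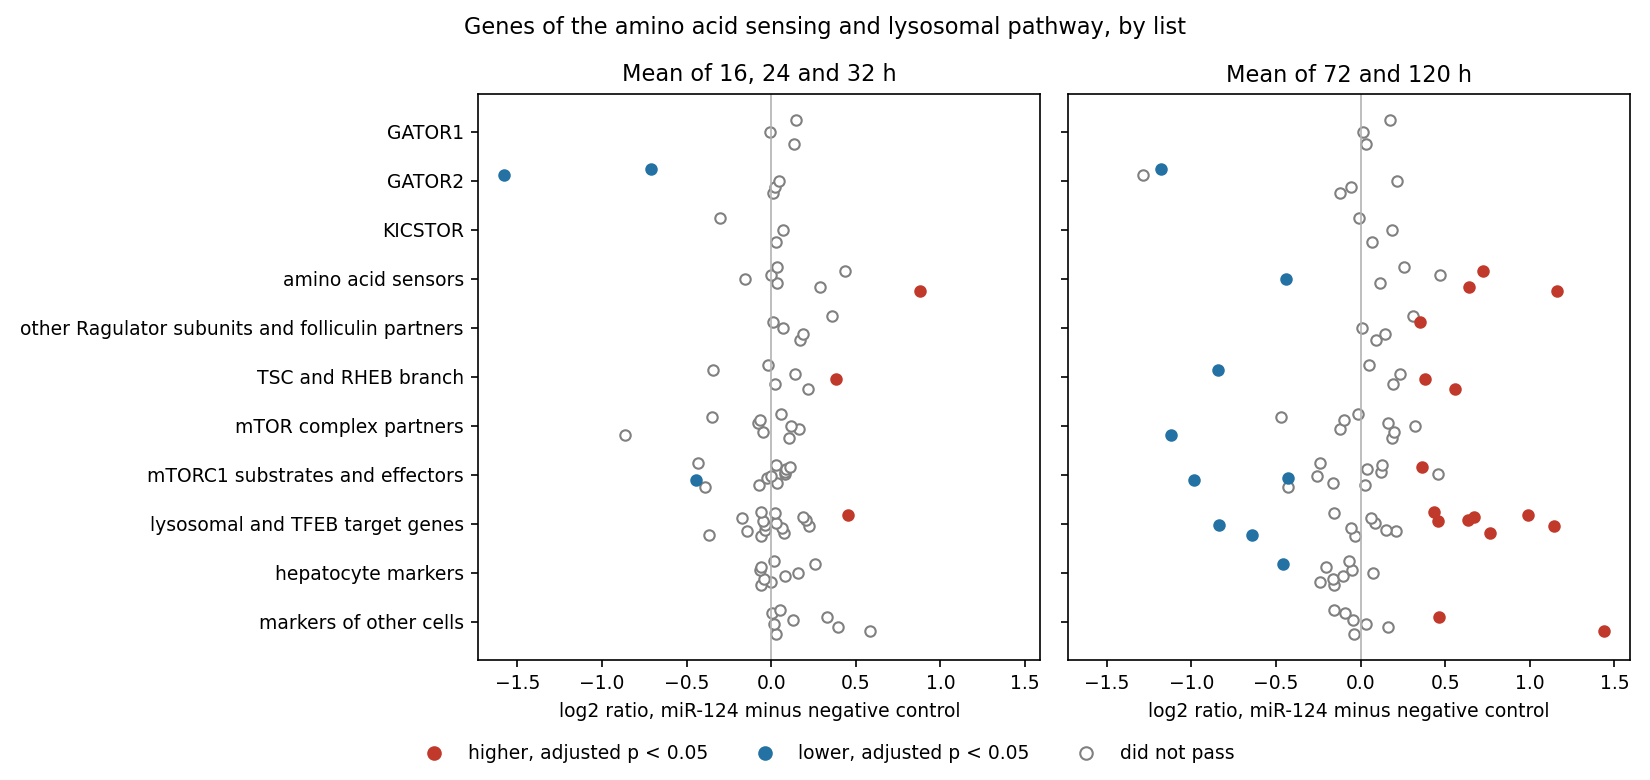
Log2 ratio (miR-124 minus negative control, horizontal axis) of each measured gene of the 9 pathway lists and the 2 marker lists, averaged over 16, 24 and 32 h at left and over 72 and 120 h at right; each circle is a gene, filled where the limma adjusted p was under 0.05. Filled circles are few at left, and at right 7 of the 16 lysosomal and TFEB target genes are filled as higher and 2 as lower. Of all genes, 11.2% were higher and 7.87% lower at 72 and 120 h.

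The genes whose 7 paired ratios came closest to those of RRAGC (218088_s_at) were ANKRD46, SH3RF1, FAS, LATS2 and MAP3K20, out of 13136 genes with a mean above the median. Their root mean square distance from RRAGC over the 7 times was 0.32, 0.35, 0.37, 0.48 and 0.50 log2 units. ANKRD46, an ankyrin repeat protein, had ratios of 0.05, 0.38, 1.44, 1.86, 2.16, 2.37 and 1.53 at 4, 8, 16, 24, 32, 72 and 120 h. FAS, a death receptor, had -0.01, 0.08, 0.57, 1.48, 1.86, 2.08 and 1.46. Both peaked at 72 h, as RRAGC did, and both were lower than RRAGC at 8 h. LATS2, a kinase of the Hippo pathway, peaked at 1.64 and MAP3K20, a stress-activated kinase, at 1.61, also at 72 h. The likeness is a description of 7 pairs of arrays on one platform.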

How the data were processed

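The 14 one-colour arrays of biotin-labelled cRNA were deposited as log2 values, made by the authors with RMA per the submitters' processing notes; the RMA version and settings are not given in the sources used here. Deposited values ranged from 2.93 to 14.4, none was missing and no arrays were identical; correlations between arrays were 0.967 to 0.998. The number of arrays limits the precision. Nothing states whether the cultures were independent, and no hour has a replicate pair. In the fits with the hour as a block, the spread behind each p-value is how the paired ratio varied between hours. Real change of the response with time and technical spread both enter it and cannot be told apart. For the slopes it is the scatter of the arrays of an arm around the fitted line.

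Symbols came from the platform annotation, which gave 1 symbol for 41091 probe sets, several for 1801 and none for 11721. limma 3.58.1 in R 4.3.3 was fitted to 54613 probe sets, leaving out 62 control probe sets, with two-sided Benjamini-Hochberg adjustment over all of them and a threshold of 0.05. The hour was a block, with a transfection effect over all times (6 residual degrees of freedom) or for each of 3 windows, 4 and 8 h, 16 to 32 h, and 72 and 120 h (4 degrees of freedom). Slopes used log2 of time within each arm (5 degrees of freedom). Arrays of the same hour form the pairs, and their deviations from the arm means correlated at 0.173 to 0.397, above 0.1 in all 7 pairs. Errors marked ± are standard errors of the fit. RRAGC was not tested. The scripts were tested on simulated data.

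The named genes are all members, up to 4 called genes of each pathway list (the largest by size) and the 5 genes nearest to RRAGC. Where a list had no called gene, the largest middle difference is named. TFEB, LAMP2, PSAP, GPNMB, MCOLN1 and MAP1LC3B were added after their values were seen. A gene is read by its probe set with the highest mean. The members and lists were chosen with earlier results of these data known. Alternatives were 1 probe set per gene above the median, centred arrays, no block, each window on its own arrays, the mean over a gene's probe sets, and each time left out. Hepatocyte and other-cell markers were checked as lists.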

Additional observations from a re-analysis of the deposited data

Results flagged for a closer look

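For 3 probe sets of 2 tested genes the response to miR-124 differed between the windows by a test of the difference itself, the 72 and 120 h effect minus the 16 to 32 h effect in the same limma fit. For RRAGD it was 1.41 by 221524_s_at, with effects of 1.76 late and 0.35 in the middle, and 1.97 by 221523_s_at, with effects of 1.89 late and -0.08 in the middle. For LAMTOR3 it was 1.17 by 227562_at, with effects of 1.30 late and 0.13 in the middle, while the brighter probe set of that gene, 217971_at, gave 0.24 ± 0.11 (SE; limma adjusted p = 0.361). Both late pairs showed the higher level with miR-124 in each case. No paired ratio stood apart from the other 6 of its probe set in any of the 16 member probe sets, by Dixon's test on the ratios. The ratios come from different hours rather than repeats. The test reads the gap at a single extreme, so it cannot flag late hours that are both high, and no conclusion is drawn from it.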

How the results depend on the processing

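The middle count of 1 became 0 with the mean over a gene's probe sets and 3 with each window on its own arrays, and leaving out 1 time gave 0 to 3 (0 without 24 or 32 h, 3 without 72 or 120 h). The late count of 6 became 3 with 1 probe set per gene above the median (6 tested), 2 with the mean over probe sets (7 tested) and 3 on its own arrays, and 4 to 6 with 1 time left out. The late minus middle count of 3 became 1, the miR-124 time course count of 3 became 1 and the control count of 0 became 1 (FLCN) with 1 probe set per gene, where fewer probe sets are tested; leaving out 1 time gave 3 to 3, 1 to 3 and 0 to 1. The count over all times was 0, and 0 to 1 with 1 time left out (LAMTOR3 without 4 h). Without pairing by hour (no replicate block) the counts stayed at 1 in the middle and 6 late, with RRAGA gained and FLCN (1552664_at) lost, and no other member call changed. With 1 time left out, RRAGB at 16 to 32 h (0.03) was -0.0613 to 0.187, below 0 without 16 h and without 32 h (-0.028), and RPTOR late (-0.29) was -0.598 to 0.0229, above 0 without 72 h. Where a left-out time leaves 1 late pair, that pair is assumed to vary like the other times. Over all probe sets the middle count of 1749 was 0 without 24 h, 32 without 32 h, 3765 without 72 or 120 h and 3684 on its own arrays; the late count of 8119 was 1872 on its own arrays; and the count over all times of 323 was 2 after centring, 1558 without 4 h and 0 without any one of the last 5 times. The cause was not tested. With 1 probe set per gene above the median, 3821 of all 13137 genes passed late and 624 passed for late minus middle. In that setting 2855 genes passed along the miR-124 time course and 1075 along the control one. With the mean over a gene's probe sets, 717 of all 19775 genes passed in the middle and 3842 late. Of 166 values of single tested members under the alternatives, 145 kept their direction and side of the threshold. Many of these could not change direction. The difference in a window is the same when a time outside it is left out, without the block, or on its own arrays. Others are members that passed in neither setting, so the count is not a measure of robustness. Low signal limits 221523_s_at of RRAGD, 243062_at of FLCN and RRAGB, with means of 4.58, 4.86 and 5.57 against a median of 6.19, and 242531_at of RRAGC, at 6.23.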
